A study of Mus musculus with 3 samples.

Results

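The subject is a set of 47 genes whose products carry a cell through mitosis: CDK1 and its cyclins, mitotic kinases, kinesins, kinetochore subunits, condensins and the cytokinesis machinery. The members were taken by symbol from a table of 23348 genes with 1 expression value per library, and all 47 had a line in it. All 47 were at 1 FPKM or more in at least 1 library, where FPKM counts fragments relative to transcript length and to the size of the library. The libraries hold RNA of sorted DN1 thymocytes, the thymic cells that lack lineage markers, carry CD44 and lack CD25, from mice of 129sv/C3H background at postnatal day 19. The gl/gl library came from 3 pooled grey-lethal mice, which are null for Ostm1. The CD2-Ostm1 gl/gl library came from 3 pooled mice of the same null genotype that also carry an Ostm1 transgene under CD2 control, a promoter active in lymphoid cells. The wild type library came from 2 pooled mice. With 1 library per genotype there is no spread between replicates, so no test was possible and every difference below describes these libraries.

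Cells divide their chromosomes by a fixed series of steps. CDK1 bound to cyclin A or B starts mitosis, condensins compact the chromosomes, kinetochores attach them to spindle microtubules that kinesins sort, the checkpoint delays anaphase until all are attached, and CDC20 with the anaphase-promoting complex then starts separation, after which the cleavage furrow divides the cell. Most of these genes are transcribed in G2 and M phase and are silent in resting cells, so their RNA in a population is widely read as a sign of cycling cells. In the thymus the earliest progenitors divide before they commit to the T lineage, whereas mature granulocytes do not divide.

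The libraries differed before any member is considered. Ostm1, the gene lost in grey-lethal mice, follows the labels: the gl/gl library lists it at 0, against 5.35 FPKM in CD2-Ostm1 gl/gl and 19.6 FPKM in wild type. Cd44, which defines the gate, was present in all libraries, with 109 FPKM in gl/gl, 64.7 FPKM in CD2-Ostm1 gl/gl and 66.4 FPKM in wild type. Il2ra, which encodes CD25 and should be low, had 11.7 FPKM in gl/gl, 4.03 FPKM in CD2-Ostm1 gl/gl and 5.94 FPKM in wild type. The labels do not give the sex of the pooled mice. Xist had 0.184 FPKM in gl/gl, 235 FPKM in CD2-Ostm1 gl/gl and 116 FPKM in wild type, while the Y-linked Eif2s3y had 59.8 FPKM in gl/gl, 0.0395 FPKM in CD2-Ostm1 gl/gl and 0.0338 FPKM in wild type, so sex-linked RNA and the gl/gl genotype cannot be told apart.

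Markers of other cells moved with the gl/gl library. For scale, 8.16% of all measured genes were at least 2-fold higher in gl/gl than in wild type and 6.15% at least 2-fold lower. The summed level of 14 granulocyte markers was 29180 FPKM in gl/gl, 433.3 FPKM in CD2-Ostm1 gl/gl and 402.8 FPKM in wild type, and 12 of the 14 were at least 2-fold higher in gl/gl than in wild type. The other 2 were at least 2-fold lower: Mpo, with 9.71 FPKM in gl/gl and 152 FPKM in wild type, and Ctsg, with 3.43 FPKM and 9.16 FPKM. Most of the gl/gl sum came from S100a8 (14700 FPKM) and S100a9 (9340 FPKM). The summed level of 15 monocyte and macrophage markers was 1796 FPKM in gl/gl, 225 FPKM in CD2-Ostm1 gl/gl and 299.0 FPKM in wild type, with 11 of the 14 measured ones at least 2-fold higher in gl/gl than in wild type. Most of the 17 early progenitor markers went the other way, and 14 of them were at least 2-fold lower in gl/gl than in wild type. Their summed level was 308.4 FPKM in gl/gl, 812.3 FPKM in CD2-Ostm1 gl/gl and 815.7 FPKM in wild type. The 2 that were higher in gl/gl were Cd44, given above, and Sfpi1, with 61.8 FPKM in gl/gl and 35.6 FPKM in wild type. None of the granulocyte, monocyte and progenitor lists had a member at 0 in gl/gl or wild type, and in CD2-Ostm1 gl/gl Marco, a macrophage receptor, was the 1 marker at 0. The 12 natural killer cell markers also had a higher sum in gl/gl, with 1865 FPKM, against 522.7 FPKM in CD2-Ostm1 gl/gl and 590.8 FPKM in wild type. B cell markers were 2-fold higher in gl/gl than in wild type in 8 of 12 and 2-fold lower in 3, which were Vpreb1, Vpreb3 and Igll1. The sum of the 12 was 230.5 FPKM in gl/gl, 118.4 FPKM in CD2-Ostm1 gl/gl and 64.61 FPKM in wild type, and Igll1 was at 0 in gl/gl. Mast cell and basophil markers were 2-fold lower in gl/gl than in wild type in 7 of 9 measured. Hdc of this list was higher, with 35.0 FPKM in gl/gl and 1.31 FPKM in wild type. The sum of the list was 40.09 FPKM in gl/gl, 46.04 FPKM in CD2-Ostm1 gl/gl and 203.6 FPKM in wild type, and Fcer1a, Tpsab1 and Tpsb2 were at 0 in gl/gl. Of 17 T lineage genes, Cd8a, Cd8b1, Rag1, Rag2 and Dntt were 2-fold lower in gl/gl than in wild type. By any amount 9 were lower and 8 higher, among the latter Il2ra and Gata3, and the median log2 fold change was -0.065. The sum was 1055 FPKM in gl/gl, 1162 FPKM in CD2-Ostm1 gl/gl and 1547 FPKM in wild type. Most of the difference between gl/gl and wild type came from Dntt, with 18.7 FPKM in gl/gl and 462 FPKM in wild type. The part of these cells in the levels of the mitosis genes was not tested, and in bulk RNA fewer cells of a type and less RNA per cell cannot be told apart.

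Promoter sequence is shown first, because many of the members hold the same promoter elements. Sequence was not used to choose the genes, but these elements are known from genes of this kind. The cell cycle genes homology region (CHR) is a short element near the start of many G2 and M phase genes. MuvB complexes bind it, as the repressive DREAM complex in resting cells and together with B-MYB and FOXM1 in cycling cells. CCAAT boxes, bound by NF-Y, often lie upstream of it. RefSeq promoter windows of the build GRCm38.p6, 250 bases before to 50 bases after the start, were at hand for 38 of the 47 members. Those not matched were Aurkb, Ccna2, Cdc25c, Foxm1, Incenp, Kif20a, Smc4, Spc24 and Tpx2. The 4 members with the largest fold change in gl/gl (Top2a, Cdk1, Ncapd2 and Cdc20) and the 2 that departed most from the common pattern (Ube2c and Racgap1) are shown from 170 bases before to 30 bases after the start, on the strand of the gene, with every CHR (TTTGAA, its reverse complement TTCAAA, or TTCGAA) and every CCAAT box (CCAAT or ATTGG) in capitals.
Top2a, chr11:99024160-99024359, minus strand: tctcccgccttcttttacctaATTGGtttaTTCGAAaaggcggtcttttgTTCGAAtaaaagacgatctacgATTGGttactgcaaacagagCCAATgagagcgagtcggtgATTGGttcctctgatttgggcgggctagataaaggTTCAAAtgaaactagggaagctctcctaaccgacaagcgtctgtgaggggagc
Cdk1, chr10:69352883-69353082, minus strand: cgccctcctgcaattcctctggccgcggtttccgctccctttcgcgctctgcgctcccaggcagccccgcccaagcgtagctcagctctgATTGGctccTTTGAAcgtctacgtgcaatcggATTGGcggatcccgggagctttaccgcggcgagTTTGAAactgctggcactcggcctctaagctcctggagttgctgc
Ncapd2, chr6:125191557-125191756, minus strand: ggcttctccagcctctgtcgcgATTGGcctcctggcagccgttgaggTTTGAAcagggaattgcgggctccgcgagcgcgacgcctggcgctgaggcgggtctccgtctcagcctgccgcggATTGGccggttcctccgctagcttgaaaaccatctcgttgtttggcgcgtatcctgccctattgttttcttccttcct
Cdc20, chr4:118437314-118437513, minus strand: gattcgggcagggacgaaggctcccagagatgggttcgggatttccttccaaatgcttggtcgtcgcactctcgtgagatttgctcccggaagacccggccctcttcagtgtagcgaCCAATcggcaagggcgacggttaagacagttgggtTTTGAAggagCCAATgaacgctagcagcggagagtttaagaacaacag
Ube2c, chr2:164769759-164769958, plus strand: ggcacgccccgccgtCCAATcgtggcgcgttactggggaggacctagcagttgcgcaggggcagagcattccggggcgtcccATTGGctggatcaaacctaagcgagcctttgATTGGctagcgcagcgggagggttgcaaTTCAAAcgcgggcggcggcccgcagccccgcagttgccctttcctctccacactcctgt
Racgap1, chr15:99651627-99651826, minus strand: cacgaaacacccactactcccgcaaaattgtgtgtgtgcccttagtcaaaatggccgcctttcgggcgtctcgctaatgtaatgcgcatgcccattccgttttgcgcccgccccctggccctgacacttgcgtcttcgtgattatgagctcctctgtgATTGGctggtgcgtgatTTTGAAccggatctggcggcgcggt

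Of the 38 members with a window, 28 (73.7%) held a CHR within 50 bases of the start, against 1430 of all 27025 genes with a window (5.29%, members included) and 2 of 36 genes of a DNA replication list (5.56%). Over the whole window of 300 bases a CHR was found in 31 members (81.6%) and in 19.4% of all genes. At least 1 CCAAT box was found in 28 members (73.7%), in 61.1% of the DNA replication genes and in 37.9% of all genes. Both a CHR within 50 bases of the start and a CCAAT box were found in 24 members (63.2%) and in 2.28% of all genes. Both strands were searched, a CHR and a CCAAT box can share their end letter (among members this occurred in Cdca8), and only the first listed window of a gene was counted. In Cdk1 the CHR nearest to the start began 15 bases before it, in Cdc20 18 bases before it, in Top2a 23 bases before it and in Ube2c 29 bases before it. The sequence of Racgap1 had a CHR 6 bases into the transcript, and in Ncapd2 the 1 CHR began 123 bases upstream. Windows of Birc5, Mad2l1, Ncaph, Nuf2 and Nusap1 held neither set of letters, which says nothing of other forms of these elements. Fold changes were alike with and without the element: members with a CHR near the start had a median log2 fold change of -0.78 between gl/gl and wild type (28 genes) and those without one had -0.77 (10 genes).

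**Figure D1:**
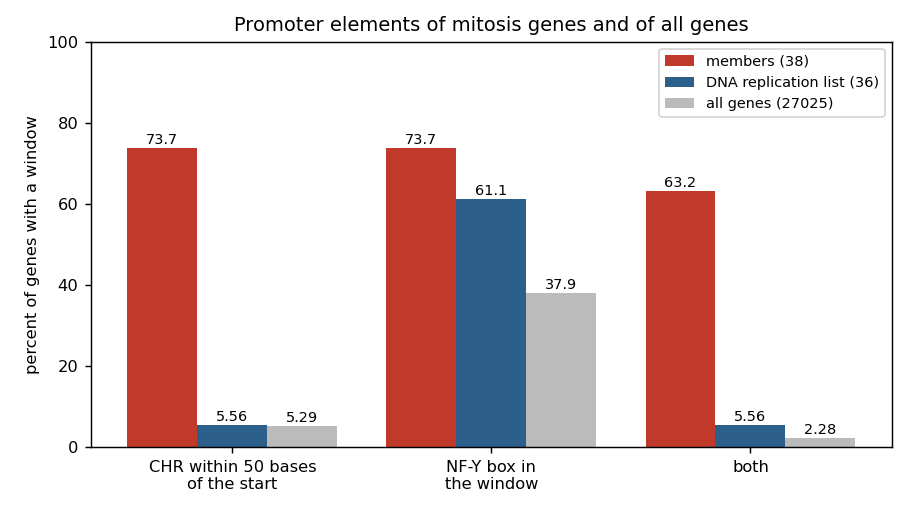
Share of genes, in percent of those with a RefSeq promoter window, that hold a CHR within 50 bases of the start, an NF-Y box (the CCAAT letters on either strand) anywhere in the window, or both, for 38 members, 36 DNA replication genes and all 27025 genes. The CHR near the start stands at 73.7% in the members and at 5.56% and 5.29% in the other sets, while the NF-Y box is common in the DNA replication genes too.

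The mitosis genes were lower in gl/gl than in wild type almost throughout, by a modest and similar amount. FPKM was lower in gl/gl for 45 of 47 members, where 52.4% of the 12849 measured genes were lower. The 2 that were higher, as 47.5% of all genes were, were Foxm1 and Racgap1. A measured gene is one with at least 1 FPKM in 1 or more libraries. The median member stood at 0.553 times its wild type FPKM, and the median log2 fold change of FPKM + 1 was -0.744, against -0.032 over all measured genes. At 2-fold or more on that scale, 5 of 47 members were lower, against 6.15% of all measured genes: Top2a, Cdk1, Ncapd2, Cdc20 and Ndc80. At that threshold no member was higher (8.16% of all genes were). At 1.5-fold or more, 33 of 47 members were lower, against 16.1% of all measured genes, and none was higher, against 16.3%. By the plain ratio of FPKM, with nothing added, 12 of 47 members had at most 1/2 of their wild type level, against 9.63% of the genes with a ratio: the 5 above and Bub1, Bub1b, Ect2, Kif11, Kif2c, Smc2 and Ttk. The standard deviation of the log2 fold changes was 0.322 across members and 0.999 across all measured genes.

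The summed level of the 47 members was 508.1 FPKM in gl/gl, 755.0 FPKM in CD2-Ostm1 gl/gl and 831.6 FPKM in wild type, and the median member had 6.86 FPKM in gl/gl, 10.8 FPKM in CD2-Ostm1 gl/gl and 12.4 FPKM in wild type. Members at 10 FPKM or more numbered 16 in gl/gl, 27 in CD2-Ostm1 gl/gl and 31 in wild type. The members nevertheless kept much of their order, with a Spearman correlation of their log2 values of 0.944 between gl/gl and wild type across 47 genes of the same libraries. The lowest counts belonged to Cdc25c, with roughly 93 fragments in gl/gl, 123 in CD2-Ostm1 gl/gl and 244 in wild type by an estimate from the smallest steps of the values. For 46 of 47 members the difference between gl/gl and wild type was larger than this counting error, the 1 exception being Foxm1, but counting error leaves out the variation between mice. The fragment estimate also takes the longest annotated transcript of each gene, so the error can be understated where shorter forms prevail.

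**Figure D2:**
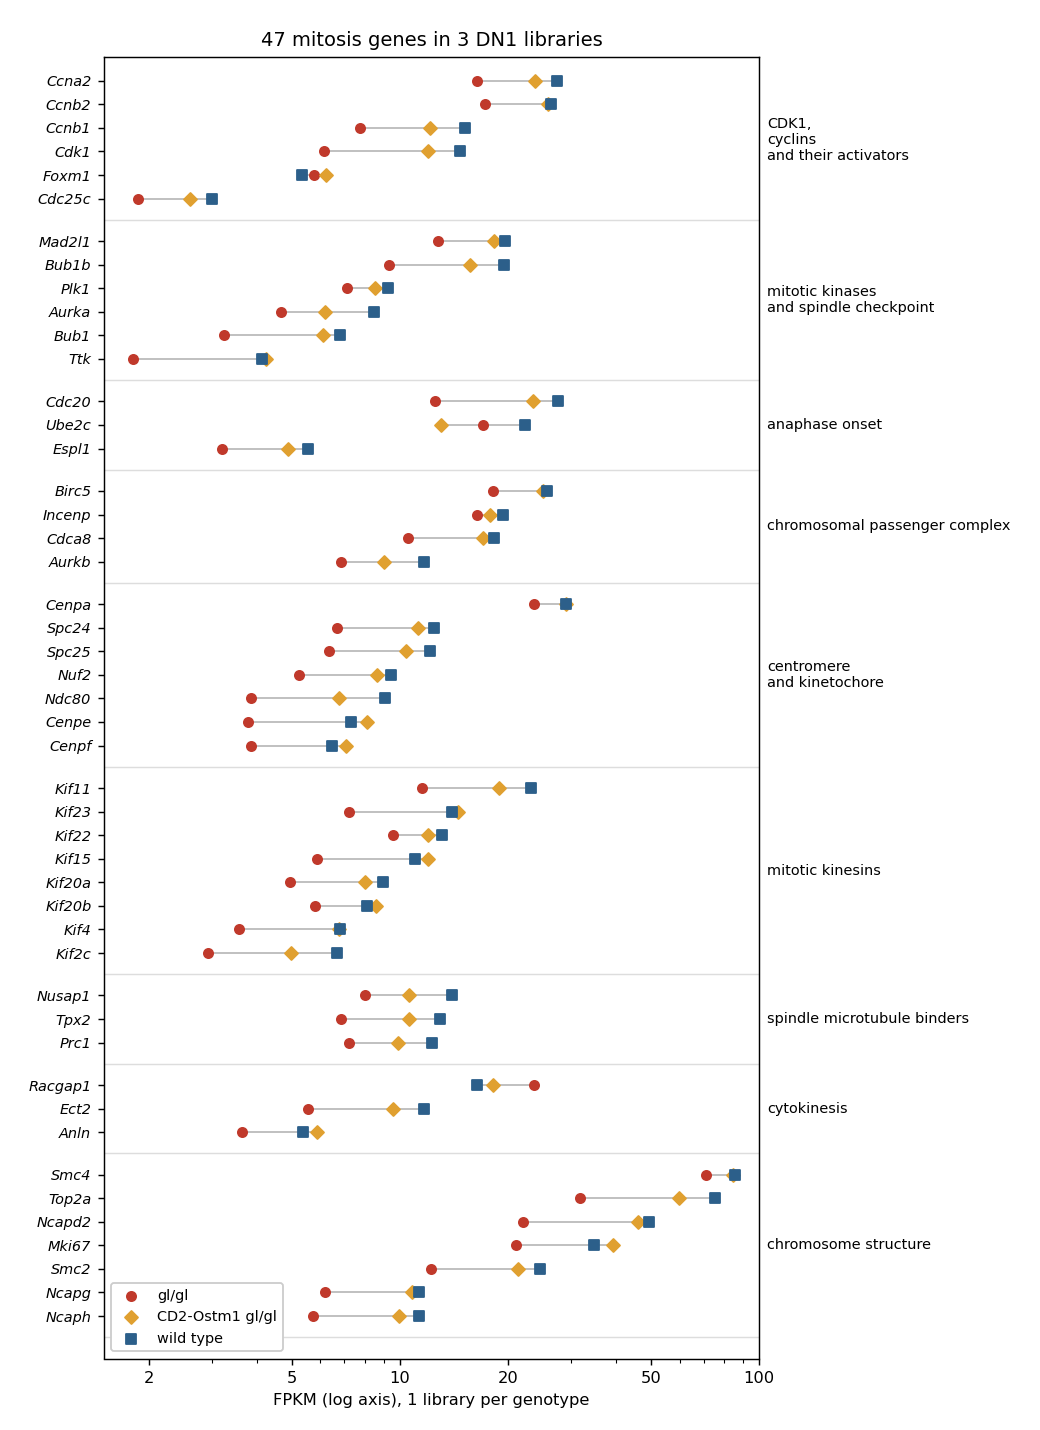
FPKM of each of the 47 members on a log axis, grouped by role, with a red circle for gl/gl, an orange diamond for CD2-Ostm1 gl/gl and a blue square for wild type (1 library each). The gl/gl circle lies left of the wild type square for 45 members, and the exceptions are Foxm1 and Racgap1.

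Among CDK1 and its partners, the kinase was furthest below wild type in gl/gl. Cdk1 (chromosome 10, 69335146 to 69352938, GENCODE M21 on GRCm38), the kinase that starts mitosis, had 6.16 FPKM in gl/gl, 12.0 FPKM in CD2-Ostm1 gl/gl and 14.7 FPKM in wild type. Its log2 fold change was -1.13 between gl/gl and wild type, and the ratio of FPKM was 0.419 with a 95% counting interval of 0.386 to 0.454. The gl/gl library was the lowest, and CD2-Ostm1 gl/gl lay under wild type at a ratio of 0.818 (counting interval 0.767 to 0.872). Ccnb1, a cyclin B, had 7.74 FPKM in gl/gl, 12.1 FPKM in CD2-Ostm1 gl/gl and 15.2 FPKM in wild type. Ccnb2, the other cyclin B, differed less, with 17.2 FPKM in gl/gl, 25.8 FPKM in CD2-Ostm1 gl/gl and 26.3 FPKM in wild type. Ccna2, the A-type cyclin of S and G2 phase, had 16.4 FPKM in gl/gl, 23.7 FPKM in CD2-Ostm1 gl/gl and 27.4 FPKM in wild type. Named pseudogenes of Ccnb1 and Ccnb2, and likewise of the kinesins Kif4 and Kif22, exist in the annotation and could share reads with them. Cdc25c, the phosphatase that activates CDK1, was the least abundant of the group, with 1.87 FPKM in gl/gl, 2.60 FPKM in CD2-Ostm1 gl/gl and 2.99 FPKM in wild type. Foxm1, a transcription factor of G2 and M phase genes, was not lower: it had 5.77 FPKM in gl/gl, 6.21 FPKM in CD2-Ostm1 gl/gl and 5.32 FPKM in wild type, and its ratio of 1.09 between gl/gl and wild type had a counting interval of 0.993 to 1.20. Its level therefore could not be told from wild type at this depth.

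All 6 mitotic kinases and checkpoint genes were lower in gl/gl than in wild type, against 52.4% of all measured genes. Bub1b, which encodes the checkpoint protein BUBR1, had 9.30 FPKM in gl/gl, 15.7 FPKM in CD2-Ostm1 gl/gl and 19.5 FPKM in wild type, a log2 fold change of -0.99 between gl/gl and wild type. Bub1, its kinase relative, stood at 3.24 FPKM in gl/gl, 6.11 FPKM in CD2-Ostm1 gl/gl and 6.83 FPKM in wild type. Ttk, the MPS1 kinase that starts the checkpoint signal, was at 1.81 FPKM in gl/gl, 4.25 FPKM in CD2-Ostm1 gl/gl and 4.13 FPKM in wild type. For Ttk the plain ratio between gl/gl and wild type was 0.438, although its log2 fold change was only -0.87, since adding 1 FPKM shrinks the change of low genes. Mad2l1, the MAD2 subunit of the checkpoint complex, had 12.8 FPKM in gl/gl, 18.3 FPKM in CD2-Ostm1 gl/gl and 19.6 FPKM in wild type. Aurka, the kinase of spindle poles, had 4.65 FPKM in gl/gl, 6.20 FPKM in CD2-Ostm1 gl/gl and 8.46 FPKM in wild type, and so lay between both other libraries in CD2-Ostm1 gl/gl. Plk1, polo-like kinase 1, differed least of the 6, with 7.13 FPKM in gl/gl, 8.52 FPKM in CD2-Ostm1 gl/gl and 9.27 FPKM in wild type.

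All 3 genes of anaphase onset were lower in gl/gl than in wild type, against 52.4% of all measured genes, but Ube2c was lower still in CD2-Ostm1 gl/gl. Cdc20 (chromosome 4, 118432901 to 118437352), the activator of the anaphase-promoting complex, had 12.5 FPKM in gl/gl, 23.4 FPKM in CD2-Ostm1 gl/gl and 27.5 FPKM in wild type, with a log2 fold change of -1.07 between gl/gl and wild type. Espl1, the separase that cuts cohesin, had 3.19 FPKM in gl/gl, 4.89 FPKM in CD2-Ostm1 gl/gl and 5.56 FPKM in wild type. Ube2c (chromosome 2, 164769898 to 164778822), the ubiquitin-conjugating enzyme of the same complex, had 17.0 FPKM in gl/gl, 13.0 FPKM in CD2-Ostm1 gl/gl and 22.3 FPKM in wild type. It was the 1 member lowest in CD2-Ostm1 gl/gl, where its ratio to wild type was 0.583 (counting interval 0.535 to 0.635). The ratio of Ube2c to Cdc20 was 1.36 in gl/gl, 0.554 in CD2-Ostm1 gl/gl and 0.810 in wild type. Tnnc2, a gene of the opposite strand that shares 22.8% of the exonic bases of Ube2c, was under 1 FPKM in all libraries, with 0.0578 FPKM in gl/gl, 0 in CD2-Ostm1 gl/gl and 0.143 FPKM in wild type.

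The chromosomal passenger complex, which corrects wrong attachments and later guides cytokinesis, was lower in gl/gl in all 4 subunits, against 52.4% of all measured genes, and by uneven amounts. Its kinase Aurkb had 6.84 FPKM in gl/gl, 9.03 FPKM in CD2-Ostm1 gl/gl and 11.7 FPKM in wild type. Cdca8, which encodes borealin, had 10.5 FPKM in gl/gl, 17.0 FPKM in CD2-Ostm1 gl/gl and 18.3 FPKM in wild type. Birc5, which encodes survivin, was the most abundant subunit with 18.1 FPKM in gl/gl, 25 FPKM in CD2-Ostm1 gl/gl and 25.6 FPKM in wild type. The scaffold Incenp was the lowered member that moved least, with 16.4 FPKM in gl/gl, 17.8 FPKM in CD2-Ostm1 gl/gl and 19.3 FPKM in wild type, a log2 fold change of -0.22 between gl/gl and wild type.

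At the kinetochore the outer, microtubule-binding subunits were further below wild type than the centromeric histone. Ndc80 (chromosome 17, 71496100 to 71526857), which binds microtubules, had 3.84 FPKM in gl/gl, 6.78 FPKM in CD2-Ostm1 gl/gl and 9.08 FPKM in wild type, a log2 fold change of -1.06 between gl/gl and wild type. Its partners had log2 fold changes of -0.74 for Nuf2, -0.80 for Spc24 and -0.83 for Spc25 in the same comparison. The 4 subunits, which assemble in equal number, had like levels: the highest over the lowest was 1.74 in gl/gl, 1.65 in CD2-Ostm1 gl/gl and 1.36 in wild type. Cenpe, a kinesin of the kinetochore, had 3.77 FPKM in gl/gl, 8.08 FPKM in CD2-Ostm1 gl/gl and 7.30 FPKM in wild type. Cenpf, a large protein of the outer kinetochore, had 3.86 FPKM in gl/gl, 7.09 FPKM in CD2-Ostm1 gl/gl and 6.46 FPKM in wild type. Cenpa, the histone variant that marks the centromere, had 23.6 FPKM in gl/gl, 28.9 FPKM in CD2-Ostm1 gl/gl and 28.9 FPKM in wild type, so it was the most abundant of the group and the one that differed least.

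All 8 mitotic kinesins were lower in gl/gl than in wild type, where 52.4% of all measured genes were. Kif11, the motor that pushes spindle poles apart, had 11.5 FPKM in gl/gl, 18.9 FPKM in CD2-Ostm1 gl/gl and 23.2 FPKM in wild type. Kif2c, which depolymerizes microtubules at centromeres, had 2.92 FPKM in gl/gl, 4.96 FPKM in CD2-Ostm1 gl/gl and 6.69 FPKM in wild type, with log2 fold changes of -0.97 between gl/gl and wild type and -0.37 between CD2-Ostm1 gl/gl and wild type. Kif15, a motor that backs up Kif11 at the spindle, was at 5.87 FPKM in gl/gl, 12.0 FPKM in CD2-Ostm1 gl/gl and 11 FPKM in wild type. Both Kif11 and Kif15 were thus lowest in gl/gl, but CD2-Ostm1 gl/gl lay under wild type for Kif11 and over it for Kif15. Kif23, a subunit of centralspindlin, had 7.20 FPKM in gl/gl, 14.5 FPKM in CD2-Ostm1 gl/gl and 14 FPKM in wild type. The chromokinesin Kif4, which is X-linked (100625737 to 100727214), had 3.56 FPKM in gl/gl, 6.78 FPKM in CD2-Ostm1 gl/gl and 6.81 FPKM in wild type. It shares 15.1% of its exonic bases with Pdzd11 on the opposite strand. Pdzd11 had 9.4 FPKM in gl/gl, 10.6 FPKM in CD2-Ostm1 gl/gl and 12.2 FPKM in wild type. Kif20a, a motor of the late spindle, had a log2 fold change of -0.74 between gl/gl and wild type, and shares 29.3% of its exonic bases with Cdc23 on the opposite strand, which had 20.4 FPKM in gl/gl, 25.9 FPKM in CD2-Ostm1 gl/gl and 26.1 FPKM in wild type. Kif20b, its relative, and the chromokinesin Kif22 differed least, both with -0.42 in that comparison.

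The 3 spindle microtubule binders had like levels and differed by like amounts. Tpx2, which activates Aurora A, had 6.86 FPKM in gl/gl, 10.6 FPKM in CD2-Ostm1 gl/gl and 12.9 FPKM in wild type. Nusap1, which bundles spindle microtubules, had 8.0 FPKM in gl/gl, 10.6 FPKM in CD2-Ostm1 gl/gl and 14 FPKM in wild type. Prc1, which crosslinks the central spindle, had 7.19 FPKM in gl/gl, 9.90 FPKM in CD2-Ostm1 gl/gl and 12.3 FPKM in wild type. In each of these CD2-Ostm1 gl/gl lay between the other libraries, with log2 fold changes against wild type of -0.25 for Tpx2, -0.37 for Nusap1 and -0.28 for Prc1.

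Cytokinesis genes held the clearest exception. Racgap1 (chromosome 15, 99620496 to 99651656), the GTPase-activating subunit of centralspindlin, had 23.6 FPKM in gl/gl, 18.2 FPKM in CD2-Ostm1 gl/gl and 16.4 FPKM in wild type. It was the highest member of its group in every library and higher in gl/gl than in wild type, at a ratio of 1.44 (counting interval 1.35 to 1.53). Kif23, which binds it in equal number, was lower in gl/gl, so the ratio of Racgap1 to Kif23 was 3.28 in gl/gl, 1.25 in CD2-Ostm1 gl/gl and 1.17 in wild type. Ect2, which centralspindlin recruits to the cell middle, had 5.53 FPKM in gl/gl, 9.54 FPKM in CD2-Ostm1 gl/gl and 11.7 FPKM in wild type. Anln, the anillin scaffold of the cleavage furrow, had 3.64 FPKM in gl/gl, 5.87 FPKM in CD2-Ostm1 gl/gl and 5.36 FPKM in wild type.

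The most abundant members encode chromosome structure proteins, and they held the largest and some of the smallest differences. Top2a (chromosome 11, 98992943 to 99024189), the topoisomerase that untangles sister chromatids, had 31.7 FPKM in gl/gl, 59.7 FPKM in CD2-Ostm1 gl/gl and 75.3 FPKM in wild type. At -1.22 its log2 fold change between gl/gl and wild type was the lowest of the 47, and the ratio of 0.421 had a counting interval of 0.408 to 0.435. A small nucleolar RNA gene of the same strand, Gm23451, shares 1.35% of its exonic bases, which that interval does not cover. Ncapd2 (chromosome 6, 125168007 to 125191701), a condensin I subunit, had 22 FPKM in gl/gl, 46.1 FPKM in CD2-Ostm1 gl/gl and 49.2 FPKM in wild type. Its value is less certain, because the small RNA gene Scarna10 shares 3.78% of its exonic bases and had 16300 FPKM in gl/gl, 42800 FPKM in CD2-Ostm1 gl/gl and 31300 FPKM in wild type. Smc2, a condensin core subunit, had 12.2 FPKM in gl/gl, 21.3 FPKM in CD2-Ostm1 gl/gl and 24.6 FPKM in wild type. Smc4 (chromosome 3, 69004738 to 69034623), with which it pairs, was the highest member in every library and differed little, with 71.0 FPKM in gl/gl, 84.8 FPKM in CD2-Ostm1 gl/gl and 85.4 FPKM in wild type. The ratio of Smc4 to Smc2 was 5.83 in gl/gl, 3.98 in CD2-Ostm1 gl/gl and 3.48 in wild type. Ncapg and Ncaph, which complete condensin I, had log2 fold changes of -0.77 and -0.87 between gl/gl and wild type. Mki67, which encodes the Ki-67 antigen used to stain cycling cells, had 21.1 FPKM in gl/gl, 39.3 FPKM in CD2-Ostm1 gl/gl and 34.6 FPKM in wild type. Top2a over Mki67 was 1.5 in gl/gl, 1.52 in CD2-Ostm1 gl/gl and 2.17 in wild type.

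**Figure D3:**
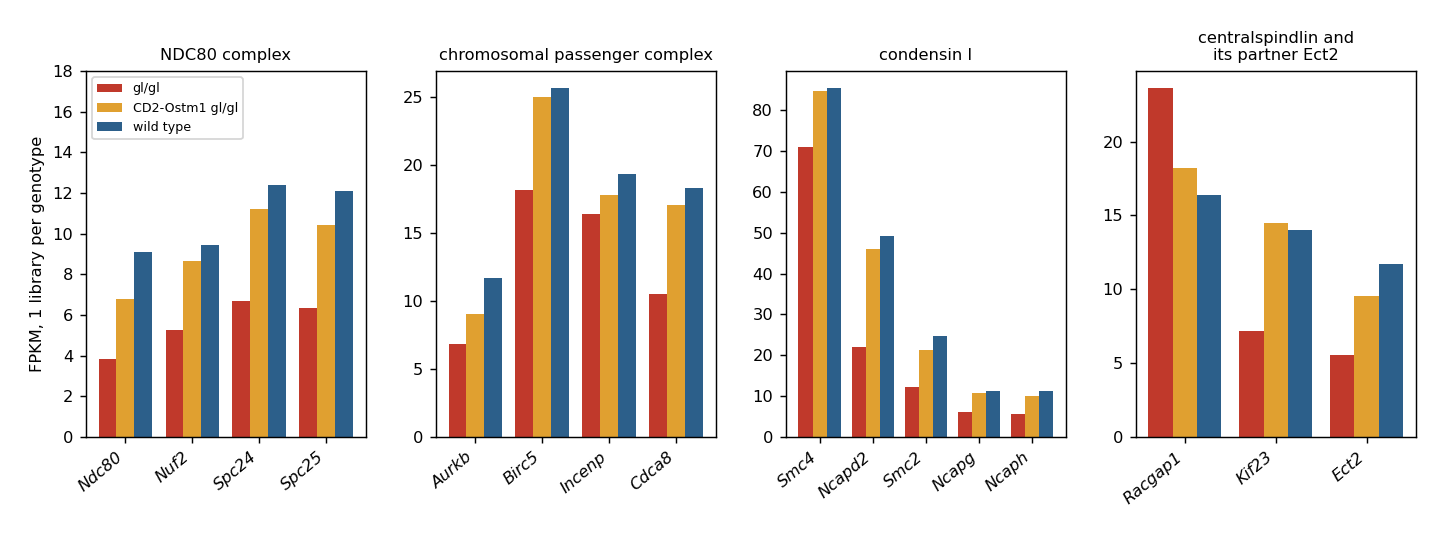
FPKM (bars from 0, 1 library per genotype, no error bars) of the subunits of 3 complexes and of centralspindlin with Ect2, in gl/gl, CD2-Ostm1 gl/gl and wild type from left to right. The 4 NDC80 subunits keep like levels in each library, Smc4 stays far above the other condensin subunits, and Racgap1 is the 1 gene shown that is highest in gl/gl.

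With the transgene the members were higher than in gl/gl. FPKM was higher in CD2-Ostm1 gl/gl than in gl/gl for 45 of 47 members (51.7% of all measured genes were higher), and the 2 that were lower, as 48.2% of all genes were, were Racgap1 and Ube2c. The median member had 1.63 times its gl/gl FPKM, and the median log2 fold change was 0.606, against 0.025 over all measured genes. At 2-fold 1 member was higher, Ncapd2 with a log2 fold change of 1.03, where 6.47% of all measured genes were higher, and none was lower, where 9.82% were. At 1.5-fold 25 of 47 members were higher, against 16.8% of all measured genes, and none was lower, against 18.8%. By plain ratio 5 members at least doubled the gl/gl level (10.6% of genes with a ratio did): Cenpe, Kif15, Kif23, Ncapd2 and Ttk. After Ncapd2 came Kif15 and Cenpe, both at 0.93, then Kif23 at 0.92 and Ttk at 0.90. This comparison shares the gl/gl library with the one above, so the 2 are not independent.

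Against wild type the members differed little in CD2-Ostm1 gl/gl. No member was 2-fold lower or higher, where 1.67% and 1.34% of all measured genes were, and 1 member, Ube2c, was 1.5-fold lower, where 4.26% of all genes were. None was 1.5-fold higher, where 5.23% were, and by plain ratio none reached 2-fold, where 3.78% of genes did downwards and 4.62% upwards. The median log2 fold change was -0.132, against -0.039 over all measured genes, and 36 of 47 members were lower by any amount, against 55.2% of all genes, and 11 were higher, against 44.6%. Rescaling the libraries left 31 of 47 lower and brought the median of the members to -0.066 by gene ratios or -0.064 by upper quartile, and that of all genes to 0.023 or 0.025, on the other side of 0. The 5 largest differences after that of Ube2c (-0.74) were those of Aurka (-0.39), Ndc80, Kif2c and Nusap1 (-0.37 each) and Aurkb (-0.34). For 16 members the counting interval of the ratio held 1, among them Kif4, Smc4, Cenpa and Ccnb2. The standard deviation of the log2 fold changes was 0.185 across members and 0.677 across all measured genes. Marker lists of other cells did differ between these libraries. At 2-fold, 7 of 14 dendritic cell markers were lower in CD2-Ostm1 gl/gl than in wild type and 1 was higher (summed level 455 FPKM against 1178 FPKM). Of 9 measured mast cell and basophil markers 6 were 2-fold lower (46.04 FPKM against 203.6 FPKM). Of 6 measured erythroid markers 4 were 2-fold lower and 2 were 1.5-fold higher. The erythroid sum was higher, with 92.35 FPKM against 65.32 FPKM, most of it from Tfrc (87.9 FPKM against 45.6 FPKM). Of 12 B cell markers 9 were 1.5-fold higher (118.4 FPKM against 64.61 FPKM). Among all measured genes 1.67% were 2-fold lower, 1.34% 2-fold higher and 5.23% 1.5-fold higher. Fcer1a and Tpsab1 of the mast cell list and Slc4a1 of the erythroid list were at 0 in CD2-Ostm1 gl/gl, no marker of these 4 lists was at 0 in wild type, and the part of these cells in the members' levels was not tested.

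**Figure D4:**
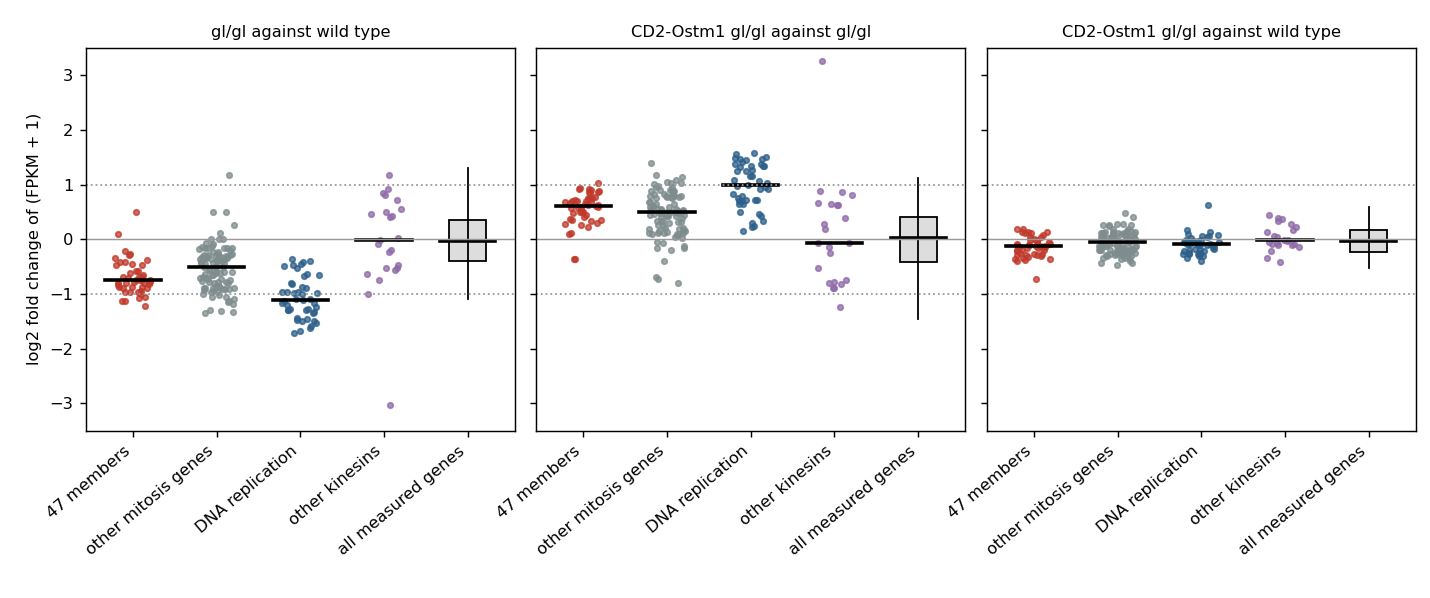
Log2 fold change of FPKM + 1 in the 3 comparisons (1 library against 1 library in each) for the 47 members, other mitosis genes, DNA replication genes and kinesins of other roles, 1 point a gene with a black bar at the median. Grey boxes show the quartiles and lines the 5th to 95th percentile of all measured genes, and dotted lines mark 2-fold. Of the 47 members 45 lie below 0 between gl/gl and wild type (not Foxm1 and Racgap1), 45 above 0 between CD2-Ostm1 gl/gl and gl/gl (not Racgap1 and Ube2c) and most near 0 between CD2-Ostm1 gl/gl and wild type, and the medians of the DNA replication genes lie further out in the first 2.

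Further genes of mitosis that are no members were mostly lower in gl/gl too, with a smaller median. Of 100 such genes, 92 were lower and 8 higher by any amount in gl/gl than in wild type, against 52.4% and 47.5% of all measured genes. At 2-fold, 12 were lower and 1 higher, against 6.15% and 8.16% of all measured genes, and the median log2 fold change was -0.504. Cenph, a subunit of the inner kinetochore, had 2.83 FPKM in gl/gl, 9.09 FPKM in CD2-Ostm1 gl/gl and 8.76 FPKM in wild type. Cks1b, a small subunit that binds CDKs, had 23.3 FPKM in gl/gl, 48.4 FPKM in CD2-Ostm1 gl/gl and 59.2 FPKM in wild type. The other lowered genes with large changes were Pbk, a mitotic kinase, at -1.33, Cenpw, a kinetochore histone-fold protein, at -1.30 and Shcbp1 at -1.18. The 1 higher gene was Gsg2, which encodes the kinase haspin, with 19.2 FPKM in gl/gl, 11.5 FPKM in CD2-Ostm1 gl/gl and 7.96 FPKM in wild type. Against wild type, CD2-Ostm1 gl/gl had none of the 100 at 2-fold, where 1.67% of all measured genes were lower and 1.34% higher, and a median of -0.060.

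DNA replication genes, which peak earlier in the cell cycle, were lower in gl/gl by more. All 45 were lower than in wild type, against 52.4% of all measured genes, and 25 were so by 2-fold or more, against 6.15%. The median log2 fold change was -1.106, against -0.744 for the mitosis members. Gins1, a subunit of the replicative helicase, had 5.07 FPKM in gl/gl, 15.6 FPKM in CD2-Ostm1 gl/gl and 19.0 FPKM in wild type. Mcm6, another helicase subunit, had 63.0 FPKM in gl/gl, 166 FPKM in CD2-Ostm1 gl/gl and 190 FPKM in wild type. Whether the lists differ was not tested, since genes of 1 library are no replicates.

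Kinesins and light chains of transport and other roles did not share the direction of the mitotic kinesins. Of 23 measured genes, 12 were lower in gl/gl than in wild type, where 52.4% of all measured genes were, and the median log2 fold change was -0.015. At 2-fold 1 was lower and 1 higher, where 6.15% and 8.16% of all measured genes were, so these counts are near or under those of all genes. Kif17, a motor of dendrites and cilia, was 2-fold lower, with 0.102 FPKM in gl/gl, 9.61 FPKM in CD2-Ostm1 gl/gl and 8.04 FPKM in wild type. The minus-end motor Kifc3 was 2-fold higher, with 8.58 FPKM in gl/gl, 3.03 FPKM in CD2-Ostm1 gl/gl and 3.24 FPKM in wild type. Cohesin genes, which hold sister chromatids together, had a median of -0.256 between gl/gl and wild type, and 11 of 13 were lower, against 52.4% of all measured genes. None of the 13 was 2-fold lower or higher, where 6.15% and 8.16% of all measured genes were.

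Subunits of DREAM and MuvB, the complexes that read the CHR, had a median log2 fold change of -0.292 between gl/gl and wild type. Of the 11, 7 were lower by any amount, against 52.4% of all measured genes. None of the 11 was 2-fold lower or higher, where 6.15% and 8.16% of all measured genes were. Rbl2, the p130 pocket protein of DREAM in resting cells, had 53.6 FPKM in gl/gl, 30.1 FPKM in CD2-Ostm1 gl/gl and 39.9 FPKM in wild type. Rbl1, its relative p107, had 14.5 FPKM in gl/gl, 26 FPKM in CD2-Ostm1 gl/gl and 24.2 FPKM in wild type. Rbl2 was thus highest and Rbl1 lowest in gl/gl. Mybl2, which encodes B-MYB, the activating partner of MuvB, had 3.17 FPKM in gl/gl, 6.83 FPKM in CD2-Ostm1 gl/gl and 6.81 FPKM in wild type.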

How the data were processed

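RNA of sorted DN1 thymocytes was sequenced in 1 library per genotype, each from pooled mice. Per the submitters' processing notes, TopHat2 2.0.10, Cuffdiff 2.2.1 and build mm10 were used; which annotation and strand option they ran with is not given in the sources used here. Per the file headers no unit is named; FPKM was inferred for the deposited values, since Cuffdiff reports it. No source states a scaling between libraries. Of 23352 lines, 1 was empty and 3 held a cell that was no number.

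Fold changes are differences of log2(FPKM + 1), which understates low genes; a gene was called at 2-fold. With 1 library per genotype there is no test and no p-value. Depth was estimated from the smallest steps between low values, for fragments assumed to span 200 bases: each fragment on 1 kb added roughly 0.035 FPKM in gl/gl, 0.0368 in CD2-Ostm1 gl/gl and 0.0214 in wild type, or 257, 245 and 421 fragments in that order for 5 FPKM on 2 kb. Fragments of a member were estimated over its longest annotated transcript, which for Cdk1 has 4375 bases against a median of 1253 for its coding transcripts. Intervals of 95% from these estimates are rough, can be too narrow where shorter transcripts prevail, and cover counting error only. They leave out reads of opposite-strand genes that share exonic bases with a member, as for Ccna2 (12.5%), Cdc25c (12.7%), Ncapg (13.4%) and Prc1 (11.1%). Promoter letters were searched in RefSeq windows, and positions are those of GENCODE M21.

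The members, the gene lists and the alternatives (other pseudocounts, filters, scalings and thresholds) were chosen with earlier results of these data known. All members could be named; of each other list, up to 5 genes with the largest fold change and 5 FPKM or more. Gsg2, Mybl2, the check genes, single marker genes and the genes overlapping a member were named after their values were seen. Calling was first tried on simulated 4-fold changes of genes at 10 FPKM or more in wild type. That trial does not cover changes as small as those of the members. Python 3.11.15, pandas 2.3.3 and numpy 2.4.6 were used.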

Additional observations from a re-analysis of the deposited data

How the results depend on the processing

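A pseudocount or a filter cannot change which library is higher for a member, so only the rescalings could change a direction. Under both rescalings 45 of 47 members were lower in gl/gl than in wild type, with Foxm1 and Racgap1 as the exceptions. Likewise 45 of 47 were higher in CD2-Ostm1 gl/gl than in gl/gl. Those rescalings shifted fold changes in these comparisons by at most 0.072. Foxm1, the member nearest to 0, had 0.10 and 0.09, so the alternatives hardly test the directions. The filter of 5 FPKM left 43 of 45 in each. The number at 2-fold was not stable. In gl/gl against wild type it was 5 as reported, 12 with a pseudocount of 0.1 or with none, 2 with a pseudocount of 5, 33 at a threshold of 1.5-fold, 0 at 4-fold, and 2 without the 15 members whose exons overlap another gene. In CD2-Ostm1 gl/gl against gl/gl the count of 1 became 4 with a pseudocount of 0.1, 5 with none, 0 with a pseudocount of 5, 25 at 1.5-fold, 0 at 4-fold, and 0 without overlapping members. In CD2-Ostm1 gl/gl against wild type it stayed 0 but for 1 at 1.5-fold. A pseudocount of 5 also brought the median log2 fold changes to -0.501 between gl/gl and wild type and to 0.423 between CD2-Ostm1 gl/gl and gl/gl. Rescaling by the median of gene ratios moved fold changes against wild type by 0.072. The median between gl/gl and wild type was then -0.682, and that between CD2-Ostm1 gl/gl and wild type shrank to -0.066 (-0.064 with an equal upper quartile), against -0.132 as deposited. The alternatives without a pseudocount and without overlapping members were chosen after seeing the data. No paired analysis was possible because each genotype has 1 library.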

Other observations

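Among regulators of the G1 phase, which stand before the mitosis genes in the cycle, some had higher and some lower values in gl/gl than in wild type. Cdk6, a G1 kinase, had 25.2 FPKM in gl/gl, 138 FPKM in CD2-Ostm1 gl/gl and 117 FPKM in wild type, and Cdk4, its relative, had 75.8 FPKM in gl/gl, 192 FPKM in CD2-Ostm1 gl/gl and 218 FPKM in wild type. The CDK inhibitors Cdkn1b (p27) and Cdkn2d (p19) were higher in gl/gl. Cdkn1b had 103 FPKM in gl/gl, 45.4 FPKM in CD2-Ostm1 gl/gl and 54.2 FPKM in wild type, while Cdkn2d had 78.7 FPKM in gl/gl, 29.1 FPKM in CD2-Ostm1 gl/gl and 31.8 FPKM in wild type. Ccnd3, a D-type cyclin, was also higher, with 133 FPKM in gl/gl, 61.9 FPKM in CD2-Ostm1 gl/gl and 70.7 FPKM in wild type. Of 14 measured genes of this list, 3 were at least 2-fold lower and 1 higher in gl/gl than in wild type, where 6.15% and 8.16% of all measured genes were, so the higher count is near that of all genes. The granulocyte markers, at a summed 29180 FPKM in gl/gl against 402.8 FPKM in wild type, moved beside them, and their part was not tested.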
